A study of Homo sapiens with 36 samples.

Results

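Cells make cholesterol from acetyl-CoA in a long series of enzyme steps and take up the rest from lipoproteins. The 8 genes described here were HMGCS1, MVD, IDI1, FDFT1, SQLE, LSS, INSIG1 and SREBF2, found by matching the Ensembl identifiers of the deposited count table to these symbols, and they made up 8 of the 61587 genes in the table. Of the 8, 6 encode synthesis enzymes, INSIG1 encodes a regulatory protein of sterol sensing and SREBF2 a transcription factor. No lipoprotein receptor is among them, although they had been listed together as synthesis and uptake genes. All 8 passed the filter on low counts that left 22486 genes in the tests.

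RNA was sequenced from HEK293T cells, an established line from human embryonic kidney. All 36 libraries came from TXNL1 knockout cells, grown from cells sorted singly after CRISPR editing, so no library came from unedited cells, and how many clones were used is not given in the sources used here. The cells carried, from a lentivirus with a CMV promoter, either an empty vector, wild-type (WT) TXNL1, D162R R234D TXNL1 (labelled DR-RD), which does not bind proteasomes, or SxxS TXNL1, a mutant of the thioredoxin active site. Each of the 4 lines was left untreated (labelled DMSO), exposed to 600 µM hydrogen peroxide or exposed to 100 µM sodium arsenite for 6 h, with 3 replicates for each of the 12 groups. TXNL1 is a thioredoxin-like protein of the proteasome, and the design asks how its presence, its proteasome contact and its active site change the transcriptome before and after oxidative stress.

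When membrane sterols are low, the protein SCAP carries the SREBP transcription factors from the endoplasmic reticulum to the Golgi, where the proteases S1P and S2P release their active part. SREBP-2, encoded by SREBF2, then raises transcription of sterol synthesis and uptake genes. When sterols are plentiful, the INSIG proteins hold SCAP back, and INSIG1 is itself a target of SREBPs. The enzymes studied here act in the order HMGCS1, MVD, IDI1, FDFT1, SQLE and LSS, and SQLE and LSS are the steps that turn squalene into lanosterol, the first sterol.

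Libraries held 42072410 to 174119002 counts with a median of 66016833, and levels are given as CPM, counts scaled to a common library size after TMM normalisation, a relative scale on which less RNA per cell and fewer cells cannot be told apart. TXNL1 itself was at 28.6 to 31.7 CPM in untreated cells with the vector and at 51.7 to 66.2 CPM in the untreated complemented lines, with no overlap. Of 5 genes expected in this line, VIM, KRT18 and KRT8 were above 13 CPM in every library, LHX1 was at 0.816 to 2.42 CPM and PAX2 at 0.147 to 0.838 CPM. Of 8 markers of other cell types, PTPRC, CD3E, ALB, PECAM1 and DES reached at most 0.811 CPM, and the list summed to 15.02 to 27.9 CPM over the groups with COL1A1 as its largest part. In 2 libraries, WT peroxide replicate 2 and WT arsenite replicate 1, the SD of log2 CPM about the group median over 15674 genes was 0.624 and 0.546, against 0.0821 to 0.193 in the other 34 libraries. The main results below are also given without these 2 libraries.

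Promoter sequences were matched in RefSeq (GRCh38.p14) for 6 of the 8 genes and are shown because SREBPs act through short elements near the start site. Each line but the last gives, 5′ to 3′ on the gene's strand, the part of the 200 bases before the RefSeq start site that lies outside the GENCODE gene. Capitals mark TCACNCCAC, a form of the sterol regulatory element, TCACGTGA, an E-box that SREBPs can also bind, and CCAAT, the letters bound by NF-Y, on either strand, so that ATTGG is CCAAT read from the other strand. The windows are chr7:155297678-155297775 (+ strand) for INSIG1, chr22:41832905-41833104 (+) for SREBF2, chr21:46228825-46228974 (− strand) for LSS, chr5:43313513-43313612 (−) for HMGCS1, chr16:88663162-88663291 (−) for MVD and chr10:1049120-1049319 (−) for IDI1. The last line is the 30-base stretch of INSIG1 around its E-box, at chr7:155297811-155297840 (+). It lies before the RefSeq start site at 155297878 but inside the GENCODE gene, which starts at 155297776.
INSIG1: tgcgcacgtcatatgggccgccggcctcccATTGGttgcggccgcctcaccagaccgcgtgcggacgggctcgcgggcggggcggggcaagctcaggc
SREBF2: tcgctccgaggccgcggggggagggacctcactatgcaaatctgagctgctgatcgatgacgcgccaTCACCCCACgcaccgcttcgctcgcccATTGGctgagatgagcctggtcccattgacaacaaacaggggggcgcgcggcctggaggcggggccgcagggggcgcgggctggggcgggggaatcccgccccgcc
LSS: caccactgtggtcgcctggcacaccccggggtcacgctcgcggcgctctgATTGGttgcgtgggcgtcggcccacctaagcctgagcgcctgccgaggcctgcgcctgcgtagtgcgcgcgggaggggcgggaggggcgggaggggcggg
HMGCS1: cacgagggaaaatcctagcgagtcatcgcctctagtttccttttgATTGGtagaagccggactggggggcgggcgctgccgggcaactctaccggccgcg
MVD: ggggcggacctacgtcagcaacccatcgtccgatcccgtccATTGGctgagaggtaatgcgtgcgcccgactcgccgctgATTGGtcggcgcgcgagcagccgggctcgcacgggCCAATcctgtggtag
IDI1: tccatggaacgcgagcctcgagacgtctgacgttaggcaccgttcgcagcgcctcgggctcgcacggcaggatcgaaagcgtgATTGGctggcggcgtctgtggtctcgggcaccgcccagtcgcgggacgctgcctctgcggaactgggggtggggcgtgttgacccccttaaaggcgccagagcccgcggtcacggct
INSIG1 E-box: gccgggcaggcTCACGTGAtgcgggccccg

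Over the full 200 bases, CCAAT was present in all 6 promoters, against 28% of 35114 RefSeq promoter windows of the same length. MVD held 3 copies at -159, -120 and -85 from the start site, HMGCS1 held 2 at -155 and -100, and the other 4 held 1 each. The sterol regulatory element TCACNCCAC was found in SREBF2 alone, at -133, and 0.709% of all windows held it. The E-box TCACGTGA was found in INSIG1 alone, at -56, against 0.795% of all windows. GGGCGG, the letters bound by Sp1, was present in all 6 and in 40.1% of all windows, with 5 copies in LSS and 4 in INSIG1. These are matches of letters in a short window and no measurement of binding.

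Levels were compared between genes only per kb of exon (CPM/kb). In untreated cells with the vector, FDFT1, which makes squalene, was at 36.5 ± 0.60 CPM/kb (SD, n = 3) and IDI1, the isopentenyl diphosphate isomerase, at 34.1 ± 1.69. SQLE, the squalene epoxidase, followed at 30.1 ± 0.14 CPM/kb, then INSIG1 at 24.4 ± 1.43 and SREBF2 at 22.4 ± 0.88. HMGCS1, the cytosolic HMG-CoA synthase, was at 16.9 ± 0.35, LSS, the lanosterol synthase, at 10.9 ± 0.28 and MVD, the mevalonate diphosphate decarboxylase, at 6.99 ± 0.23. FDFT1 and IDI1 differed by 1.4 times the larger of their SDs and so did INSIG1 and SREBF2, whereas the other neighbours stood further apart. In the same line under arsenite the order changed to FDFT1, IDI1, SREBF2, HMGCS1, SQLE, INSIG1, MVD and LSS, with SQLE at 15.2 ± 0.49 and INSIG1 at 9.75 ± 0.33 CPM/kb. Only MVD and LSS, at 8.67 ± 0.50 and 8.32 ± 0.32, were then closer than their SDs.

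**Figure D1:**
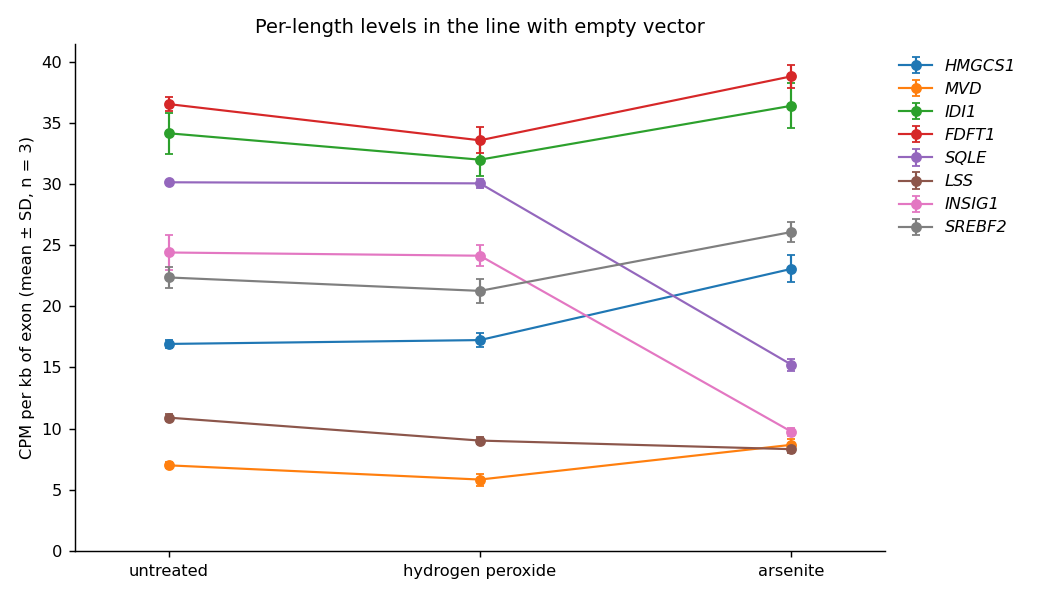
Per-length levels (CPM per kb of exon, y axis) of the 8 genes in the line with empty vector, untreated, under hydrogen peroxide and under arsenite (x axis), with points as means and bars as SD over 3 libraries. SQLE drops from 30.1 to 15.2 and INSIG1 from 24.4 to 9.75 CPM/kb under arsenite while HMGCS1 and SREBF2 pass above them.

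Arsenite split the 8 genes. INSIG1, SQLE and LSS fell and MVD, HMGCS1, SREBF2, FDFT1 and IDI1 rose when the 4 lines were averaged, so that all 8 passed an adjusted p of 0.05 (edgeR quasi-likelihood test, Benjamini-Hochberg over all tested genes). Arsenite moved much of the transcriptome, since 68.8% of all tested genes were called in this comparison, 37.4% higher and 31.5% lower. A call is therefore common here, and the sizes tell the genes apart: the median absolute log2 change of all genes was 0.37, that of INSIG1 was 1.30 and that of SQLE 1.03, whereas IDI1 and FDFT1 moved by 0.09 and 0.13. The median over the 8 genes was 0.11 and over all tested genes 0.06.

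INSIG1 (chr7:155297776-155310235, + strand, GRCh38), which encodes an INSIG protein of the endoplasmic reticulum, had the largest change of the 8. In cells with the vector it was at 92.7, 91.3 and 83.1 CPM untreated and at 34.21, 36.0008 and 36.52 CPM under arsenite. With WT TXNL1 it went from 72.7, 70.7 and 68.4 to 31.2, 31.2 and 30.6 CPM. With D162R R234D TXNL1 it went from 90.6, 86.4 and 88.7 to 32.3, 33.6 and 32.2 CPM, and with SxxS TXNL1 from 77.2, 77.6 and 70.7 to 32.7, 29.8 and 31.8 CPM. Every arsenite library was thus below every untreated library, and the 12 arsenite values lay within 29.8 to 36.5 CPM although the untreated ones spanned 68.4 to 92.7. Averaged over lines the log2 fold change was -1.30 (SE 0.029, adjusted p = 9.64e-26 by edgeR), a level 0.406 times the untreated one, and it was -1.32, -1.19, -1.44 and -1.26 in the vector, WT, D162R R234D and SxxS lines. The E-box shown above lies before its RefSeq start site and inside its GENCODE gene.

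SQLE, the squalene epoxidase and a rate-limiting step of the pathway, was at 129.0, 129.9 and 130.2 CPM in untreated cells with the vector and at 63.8, 67.9 and 64.9 CPM under arsenite. Over the 4 lines it spanned 112.7 to 135.4 CPM untreated and 45.9 to 67.9 CPM under arsenite, so the groups were far apart. The lowest of these was WT arsenite replicate 1, 1 of the 2 libraries that stood apart, against 65.0 and 64.2 CPM in its group mates. The averaged log2 fold change was -1.03 (SE 0.048, adjusted p = 1.10e-17 by edgeR), and without both libraries it was -1.01.

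LSS (chr21:46188141-46228824, − strand) cyclises squalene epoxide to lanosterol. It fell from 80.4, 76.6 and 79.5 CPM to 62.8, 58.3 and 59.5 CPM in cells with the vector. In all 4 lines the 3 arsenite libraries lay below the 3 untreated libraries. The averaged log2 fold change was -0.39 (SE 0.026, adjusted p = 4.05e-14 by edgeR), about the median absolute change of all genes.

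Of the 8 genes, the 4 enzymes that act before SQLE were higher under arsenite on average, by smaller steps. HMGCS1 (chr5:43287470-43313512, − strand), which makes HMG-CoA, was at 113.7, 113.2 and 109.4 CPM in untreated cells with the vector and at 144.5, 158.4 and 155.4 CPM under arsenite. The arsenite libraries were all above the untreated ones in the vector, D162R R234D and SxxS lines. In the WT line the groups overlapped because replicate 1 was at 97.3 CPM beside 144.8 and 144.3. The averaged log2 fold change was 0.31 (SE 0.057, adjusted p = 1.88e-05 by edgeR), and 0.34 without both outlying libraries. A noncoding gene on the opposite strand covers 37.7% of the exon bases of HMGCS1 and held 47962 counts against 320301 for HMGCS1. Whether counting used strand is not given in the sources used here, so their reads may not be fully separated.

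MVD (chr16:88651935-88663161, − strand), which decarboxylates mevalonate diphosphate, was at 32.6, 32.1 and 34.2 CPM untreated and 43.6, 39.3 and 39.8 CPM under arsenite in cells with the vector. Its averaged log2 fold change of 0.40 (SE 0.080, adjusted p = 8.03e-05 by edgeR) leans on WT arsenite replicate 1, at 70.1 CPM beside 42.7 and 43.1. Without both outlying libraries it was 0.31 (adjusted p = 9.22e-10), and in the WT line alone it went from 0.78 to 0.48.

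IDI1 (chr10) and FDFT1 hardly moved. IDI1, the isomerase of the isoprenoid building blocks, was at 154.9, 142.4 and 142.4 CPM untreated and 148.0, 163.9 and 156.7 CPM under arsenite with the vector, which overlap. Its averaged change was 0.09 (SE 0.027, adjusted p = 0.0036 by edgeR), it was -0.06 in the D162R R234D line (adjusted p = 0.375), and the averaged call was lost with scaling by total counts (adjusted p = 0.141) and with no filter on low counts (0.173). The change was 0.07 without both outlying libraries. FDFT1, the squalene synthase, was at 193.2, 189.2 and 187.1 CPM and then 201.6, 196.8 and 206.4 CPM with the vector, all higher but by 0.09 on the log2 scale. Averaged over lines it changed by 0.13 (SE 0.030, adjusted p = 0.000267 by edgeR), and by 0.11 without both outlying libraries. IDI1 shares 14.97% of its exon bases with the antisense gene IDI2-AS1 and FDFT1 shares 4.27% with an antisense gene. LSS, described above, shares 6.19% with an antisense gene and 1.69% with another, which held 797 and 4827 counts against 168404 for LSS.

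SREBF2 (chr22), which encodes SREBP-2 and carries the sterol regulatory element shown above, was at 163.3, 167.2 and 176.2 CPM in untreated cells with the vector and at 203.2, 196.8 and 190.8 CPM under arsenite. The 3 arsenite libraries were above the 3 untreated ones in the vector, D162R R234D and SxxS lines. In the WT line, replicate 1 was at 124.7 CPM beside 179.5 and 177.2 CPM. The averaged log2 fold change was 0.16 (SE 0.047, adjusted p = 0.00336 by edgeR), 0.18 without both outlying libraries, and it did not pass with scaling by total counts (adjusted p = 0.0708). An antisense gene, SREBF2-AS1, shares 9.08% of its exon bases. In WT arsenite replicate 1 and WT peroxide replicate 2, HMGCS1, SQLE and SREBF2 were low and MVD high, while INSIG1, LSS and IDI1 stayed near their group mates. FDFT1 stood apart in the peroxide library alone, at 204.1 CPM beside 171.3 and 173.1.

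**Figure D2:**
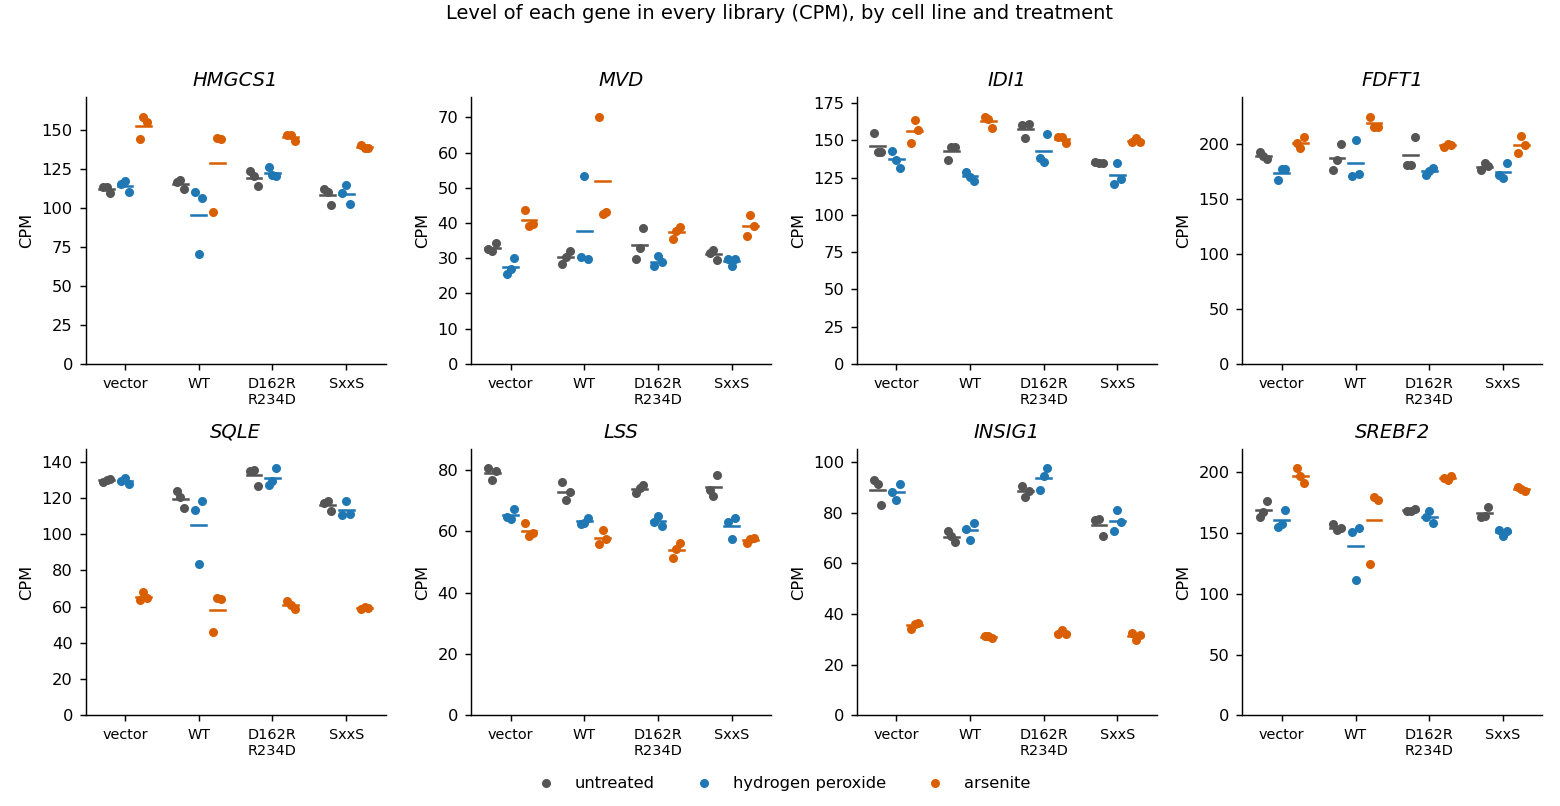
CPM (y axis, from 0) of each of the 8 genes in all 36 libraries, by line (x axis) and treatment (colour), with points as libraries and bars as group means. INSIG1 and SQLE under arsenite sit below every untreated library, and WT arsenite replicate 1 and WT peroxide replicate 2 stand off in MVD, HMGCS1, SQLE and SREBF2.

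Within single lines the falls were called everywhere and the rises were not. In cells with the vector, 4 of 8 genes passed, with HMGCS1 higher and INSIG1, SQLE and LSS lower, against 43.4% of all genes, 22.1% higher and 21.4% lower. With WT TXNL1 6 of 8 passed (MVD, FDFT1 and IDI1 higher), against 53.6%. With D162R R234D TXNL1 4 of 8 passed (HMGCS1 higher, adjusted p = 0.0438 by edgeR), against 44%, and with SxxS TXNL1 6 of 8 (HMGCS1, FDFT1 and IDI1 higher), against 43.6%. The HMGCS1 call in the D162R R234D line was lost when any 1 of its 6 libraries was left out (adjusted p 0.0616 to 0.139 by edgeR), with DESeq2 (0.0557), and in edgeR with DESeq2 size factors (0.0592), total counts (0.127), no filter (0.0973) or the replicate block (0.0549). The SxxS calls of FDFT1 and IDI1 were lost in 5 and 4 of 6 such fits, with adjusted p up to 0.158 and 0.0729. The falls of INSIG1, SQLE and LSS kept their calls in every one of these fits. Without both outlying libraries all 8 passed on average (73.7% of all genes), and 6, 8, 5 and 8 of 8 passed in the vector, WT, D162R R234D and SxxS lines, beside 56.4%, 52.9%, 56.9% and 57% of all genes.

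Whether the arsenite response differs with TXNL1 status was tested as a line by arsenite term. It passed for 0 of the 8 genes and for 0% of all tested genes (edgeR). Without adjustment 2 of 8 were under 0.05, INSIG1 and IDI1 (adjusted p = 0.728 and 0.704 by edgeR), and DESeq2 gave 3 under 0.05 and 0 called. INSIG1 fell by 1.19 with WT TXNL1 and by 1.44 with D162R R234D on the log2 scale, a spread that this test did not separate from error.

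**Figure D3:**
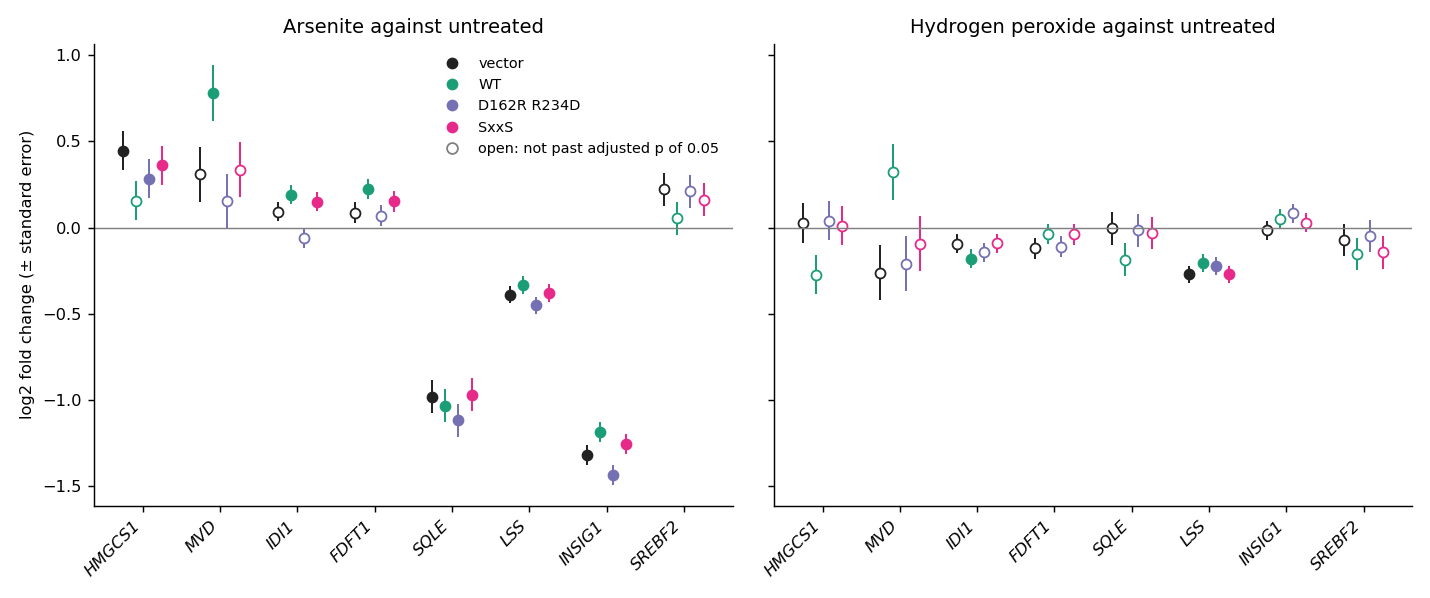
Log2 fold change against untreated (y axis, bars ± standard error) of each gene under arsenite and hydrogen peroxide in the 4 lines, filled where the adjusted p was under 0.05. INSIG1, SQLE and LSS are filled and below 0 in all 4 lines under arsenite, and LSS is the only gene filled in all 4 under peroxide.

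Hydrogen peroxide left most of the 8 genes near their untreated levels. Averaged over the 4 lines, LSS and IDI1 fell and none rose, so 2 of 8 passed, against 12.1% of all tested genes, 6.78% higher and 5.3% lower. The untreated libraries serve both treatments, so the peroxide and arsenite comparisons are not independent.

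LSS was lower in every line. It was at 64.6, 63.9 and 67.4 CPM under peroxide with the vector, beside 80.4, 76.6 and 79.5 CPM untreated. With WT TXNL1 the values were 62.4, 62.8 and 64.4 beside 75.9, 70.2 and 72.6 CPM. With D162R R234D they were 63.0, 64.8 and 61.8 beside 72.6, 74.1 and 75.0 CPM, and with SxxS 63.0, 57.6 and 64.3 beside 73.6, 71.6 and 78.2 CPM. No peroxide library of any line reached an untreated library of that line. The averaged log2 fold change was -0.24 (SE 0.026, adjusted p = 6.67e-08 by edgeR), and the adjusted p within lines was 0.00363, 0.0117, 0.0206 and 0.00468 for vector, WT, D162R R234D and SxxS.

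With 1.35%, 1.03% and 1.02% of all genes called in the vector, D162R R234D and SxxS lines, LSS was the 1 gene of 8 called in each, and in the WT line, where 8.06% of genes were called, 2 of 8 passed. The second was IDI1 at 128.9, 125.6 and 122.9 CPM, below 136.7, 145.6 and 145.6 CPM untreated (log2 fold change -0.18, adjusted p = 0.0369 by edgeR). The LSS call depended on single libraries outside the vector line: it was lost in 5 of 6 fits with 1 library left out in the D162R R234D line (adjusted p up to 0.118, all but that without untreated replicate 1), without WT untreated replicate 1 (0.0709) and without SxxS peroxide replicate 2 (0.0657). The WT call of IDI1 was lost in 4 of 6 such fits (adjusted p up to 0.133), all but those without replicate 1 of either group.

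IDI1 had an averaged change of -0.13 (SE 0.027, adjusted p = 0.00152 by edgeR). INSIG1 had 88.0, 85.0 and 91.2 CPM under peroxide with the vector, overlapping the untreated libraries, and an averaged change of 0.04 (SE 0.028, adjusted p = 0.490 by edgeR). SQLE had 129.1, 130.9 and 127.9 CPM with the vector and an averaged change of -0.06 (SE 0.047, adjusted p = 0.497). FDFT1, SREBF2, MVD and HMGCS1 had averaged changes of -0.08, -0.10, -0.06 and -0.05, none past the threshold, though FDFT1 passed without WT peroxide replicate 2 (adjusted p = 0.00591 by edgeR). Without a call, the peroxide libraries lay below the untreated ones for FDFT1 and MVD with the vector and for FDFT1 and SREBF2 with D162R R234D. The same held for SREBF2 with SxxS and HMGCS1 with WT TXNL1, and the other uncalled genes overlapped in their lines. How many of all genes lay apart in this way is not given here. WT peroxide replicate 2 was at 53.5 CPM for MVD beside 30.2 and 29.8, and at 70.3 CPM for HMGCS1 beside 110.0 and 106.2. Without both outlying libraries 5 of 8 genes passed, all lower (FDFT1, IDI1, LSS, MVD and SREBF2, with changes of -0.10, -0.13, -0.25, -0.15 and -0.08), and 28.6% of all genes. The counts within the vector, WT, D162R R234D and SxxS lines were then 3, 2, 3 and 2, beside 9.87%, 8.98%, 10.4% and 6.56%. The line by peroxide term passed for 0 of the 8 genes by edgeR and by DESeq2, with 0 under an unadjusted p of 0.05 by either, against 0.685% of all genes. Both terms still passed for 0 of 8 without both outlying libraries, beside 0.205% of all genes for arsenite and 1.51% for peroxide. Before adjustment, the edgeR quasi-likelihood test of the arsenite term then put SQLE, IDI1, INSIG1, MVD and HMGCS1 below 0.05. Their adjusted p ran from 0.221 (SQLE) to 0.463 (HMGCS1) by edgeR. In the fit on all libraries only INSIG1 and IDI1 were below 0.05 before adjustment.

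Set directly against peroxide, arsenite gave lower INSIG1 (log2 fold change -1.34), SQLE (-0.97) and LSS (-0.15) and higher MVD (0.46), HMGCS1 (0.36), SREBF2 (0.27), IDI1 (0.22) and FDFT1 (0.21). All 8 passed (highest adjusted p 1.17e-05 by edgeR), against 68.7% of all genes, 37.3% higher and 31.3% lower, and all 8 also passed without both outlying libraries, beside 74.8%.

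Before any stress, re-expressing TXNL1 left 7 of the 8 genes without a call in every line. INSIG1 was lower with WT TXNL1, at 72.7, 70.7 and 68.4 CPM, than with the vector at 92.7, 91.3 and 83.1 CPM, with no overlap. The log2 difference was -0.33 (SE 0.056, adjusted p = 0.00633 by edgeR), and 1 of 8 called stands beside 0.196% of all genes called. The call was lost without vector untreated replicate 2 (adjusted p = 0.0836) and without WT untreated replicate 3 (0.0653), while the difference stayed between -0.30 and -0.38 in all such fits. With SxxS TXNL1, INSIG1 was at 77.2, 77.6 and 70.7 CPM, also below every vector library, with a log2 difference of -0.24 (SE 0.056, adjusted p = 0.254 by edgeR). DESeq2 called that difference, and so did edgeR without both outlying WT libraries (adjusted p = 0.0149). With D162R R234D TXNL1 INSIG1 was at 90.6, 86.4 and 88.7 CPM, within the vector range, with a difference of -0.01 (SE 0.056, adjusted p = 1.00). The share of all genes called was 0.0178% for SxxS and 0.0267% for D162R R234D, and 0 of 8 passed in either. Unadjusted, 2 of 8 were under 0.05 with SxxS and 0 with D162R R234D. Without both outlying libraries, INSIG1 and SREBF2 were called with WT TXNL1 (2 of 8, beside 2.99% of all genes), INSIG1 with SxxS (0.142%) and 0 of 8 with D162R R234D (0.0756%).

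The same comparison under stress was added after the untreated values were seen. Under peroxide INSIG1 was lower with WT TXNL1 than with the vector by a log2 difference of -0.27 (SE 0.056, adjusted p = 0.0431 by edgeR, with 0.2% of all genes called), a call lost without any 1 of the vector peroxide libraries or WT peroxide replicate 2 (adjusted p up to 0.268) and without both outlying libraries (0.0613). Under arsenite the difference was -0.20 (adjusted p = 0.0698), and no gene of the 8 passed beside 1.33% of all genes (4 with an unadjusted p under 0.05 by edgeR, 2 called by DESeq2). Without WT arsenite replicate 2, INSIG1 and SREBF2 passed. The differences with SxxS were -0.20 under peroxide (adjusted p = 0.483) and -0.18 under arsenite (0.780), and those with D162R R234D were 0.09 and -0.12. In these 4 comparisons 0 of 8 passed by either tool, beside 0.0445% and 0.0267% of all genes for SxxS and 0.0178% and 0.0222% for D162R R234D, with 2, 1, 0 and 2 of 8 under an unadjusted 0.05 by edgeR. Without both outlying libraries, 0 of 8 passed under peroxide with WT TXNL1 (0.205% of all genes) and with D162R R234D (0.08%). With SxxS 1 passed (0.156%), which was SQLE (-0.18, adjusted p = 0.0282 by edgeR) and not INSIG1 (0.094). In that fit SQLE was also lower with SxxS untreated (-0.16) and under arsenite (-0.15). Neither was called (adjusted p = 0.0749 and 0.0799 by edgeR). Under arsenite INSIG1 and SREBF2 passed with WT TXNL1 (2 of 8, 2.96%), and 0 with D162R R234D (0.0978%) and with SxxS (0.378%). The sources used here name 1 line for each construct, so a difference between constructs and a difference between 2 transduced populations cannot be told apart.

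The rest of the synthesis pathway is given by 18 listed enzymes, not every step, that include the 6 described above. Of the other 12, 6 rose and 3 fell under arsenite averaged over the lines, and 3 did not pass. The risers were HSD17B7 (0.81) and TM7SF2 (0.50), which act late, and FDPS (0.39), MVK (0.29), PMVK (0.24) and ACAT2 (0.22), which act between acetyl-CoA and farnesyl diphosphate. The fallers were SC5D (-0.75), a late desaturase, MSMO1 (-0.35) and CYP51A1 (-0.13). SC5D was at 124.9, 124.8 and 124.9 CPM in untreated cells with the vector and at 70.8, 73.2 and 73.8 CPM under arsenite. NSDHL (-0.06), DHCR7 (0.00) and EBP (0.02) were not called. Without both outlying libraries the risers HSD17B7, TM7SF2, FDPS, MVK, PMVK and ACAT2 were at 0.78, 0.40, 0.33, 0.24, 0.14 and 0.16. The fallers SC5D, MSMO1 and CYP51A1 were then at -0.73, -0.35 and -0.12, and all risers and fallers stayed called. NSDHL was then called lower (-0.11, adjusted p = 0.000344 by edgeR), and DHCR7 and EBP were not called.

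**Figure D4:**
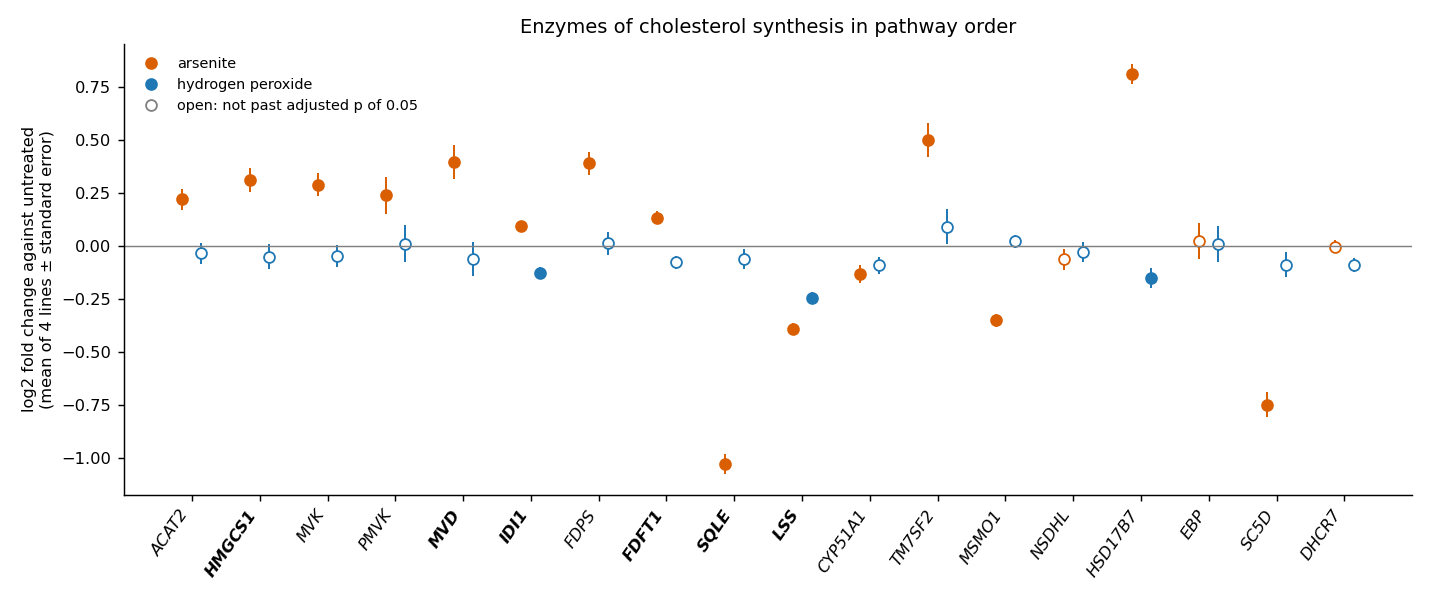
Log2 fold change against untreated (y axis, mean of the 4 lines ± standard error) of 18 enzymes in pathway order from acetyl-CoA to cholesterol (x axis), under arsenite and hydrogen peroxide, filled where the adjusted p was under 0.05, with the 6 enzymes described first in bold. Under arsenite HSD17B7 is the highest of those shown at 0.81 and SQLE the lowest at -1.03.

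Of 14 other listed genes of sterol sensing, uptake, transport and export, 13 were tested, and under arsenite 2 rose and 8 fell. INSIG2 (-1.42), the second INSIG gene, fell as INSIG1 did, from 15.8, 11.4 and 12.6 CPM to 4.76, 4.58 and 5.14 CPM in cells with the vector. MYLIP (-0.998), a ubiquitin ligase induced by liver X receptors, and NR1H2 (-0.62), a liver X receptor, followed. SREBF1 (-0.30), SCAP (-0.13), MBTPS1 (-0.40) and MBTPS2 (-0.53), which encode the other SREBP gene, its escort and its proteases, fell too. The fall of ABCA1 (-0.35), a cholesterol exporter, was at adjusted p = 0.0367 by edgeR. The risers were ABCG1 (0.88), another exporter, and NR1H3 (0.39), the other liver X receptor. Together 19 of 25 other sterol genes tested were called (8 higher, 11 lower), beside 68.8% of all genes, and their median was -0.06. The count was 21 without both outlying libraries, beside 73.7%. The ABCA1 call was lost in 9 of 33 alternatives.

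**Figure D5:**
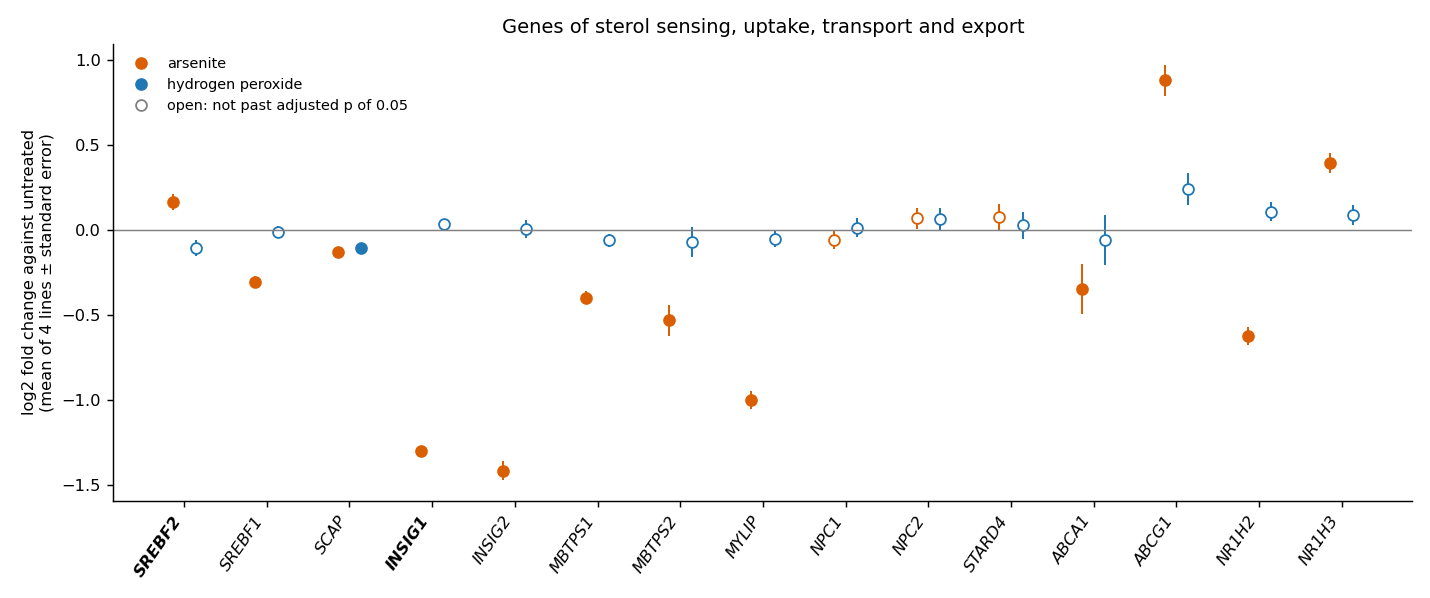
Log2 fold change against untreated (y axis, mean of the 4 lines ± standard error) of 15 genes of sterol sensing, uptake, transport and export (x axis), under arsenite and hydrogen peroxide, filled where the adjusted p was under 0.05, with INSIG1 and SREBF2 in bold. INSIG1 and INSIG2 are the lowest under arsenite at -1.30 and -1.42, and SCAP is the one gene filled under peroxide.

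Under peroxide 2 of these 25 genes passed, HSD17B7 (-0.15) and SCAP (-0.11), both lower, beside 12.1% of all genes. The HSD17B7 call was lost in 13 of 33 alternatives. The count was 8 without both outlying libraries, beside 28.6% of all genes. With single libraries left out it was between 1 and 4, 4 being without WT peroxide replicate 2, and most shares of all genes in those fits are not given here. Between lines, 1 of the 25 was called, MSMO1 with WT TXNL1 against the vector under arsenite (-0.27, adjusted p = 0.0322 by edgeR, beside 1.33% of all genes). That call was lost without WT arsenite replicate 1 (0.230) and without any 1 of the vector arsenite libraries (up to 0.149), and without both outlying libraries it was -0.21 (adjusted p = 0.0420), when TM7SF2 (-0.46) was called as well.

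Fatty acid synthesis, which SREBP-1 mainly drives, went both ways under arsenite, with 3 of 10 genes higher (ACSS2 0.46, FADS1 0.32 and FADS2 0.14) and 5 lower, led by GPAM (-1.20), SCD (-0.47) and ACACA, so that 8 of 10 passed beside 68.8% of all genes. Under peroxide FASN (-0.25) and ACSS2 (-0.11) fell and none rose, 2 of 10 beside 12.1%. Among 10 genes that use isoprenoids for prenylation, dolichol or ubiquinone, 5 rose and 5 fell under arsenite, led by FNTA (0.30) and RABGGTA (0.35) on 1 side and NUS1 (-0.78) and FNTB (-0.54) on the other, 10 of 10 beside the same 68.8%, and 0 of 10 passed under peroxide by edgeR beside 12.1%. With the outlying pair removed, 6 fatty acid genes and 5 isoprenoid genes passed under peroxide, beside 28.6% of all genes.

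Over the 12 group means of log2 CPM the 8 genes did not form 1 pattern, as a description across groups that share libraries' scaling. INSIG1 and SQLE were nearly parallel (Pearson r = 0.994) and LSS lay closer to them (0.752 and 0.792) than to the others. HMGCS1 and SREBF2 had r = 0.903 and FDFT1 and MVD r = 0.937, with MVD high in both outlying libraries. Without those libraries these r were 0.994 for INSIG1 and SQLE, 0.740 and 0.777 for LSS with them, 0.897 for HMGCS1 and SREBF2 and 0.951 for FDFT1 and MVD. SQLE and MVD ran opposite (-0.848, and -0.875 without those libraries). Among 10238 genes at 10 CPM or more, those nearest the mean standardised pattern of the 8 were COPZ1 (0.917), GBA2 (0.904), CHTF8 (0.857), DERPC (0.857) and LLGL1 (0.852). CHTF8 and DERPC have the same coordinates in GENCODE, so their reads cannot be told apart. Of the 8 genes, IDI1 had the highest r with the mean of the other 7, at 0.791, and INSIG1 the lowest, at -0.546. COPZ1 and GBA2 were, without both outlying libraries, still among the 5 nearest, and GGH, PYGL and RCBTB1 took the places of CHTF8, DERPC and LLGL1.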

How the data were processed

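Total RNA (Qiagen RNeasy) was made into strand-specific libraries and sequenced as 100-base paired ends, and the authors aligned the reads to GRCh38 with QuasR and deposited raw counts per Ensembl gene with exon widths. How mates and strand were counted is not given in the sources used here. Counts of 4 (31272 times) outnumbered counts of 3 (28087), and fits on halved counts kept every result on its side of the threshold. Of 61587 identifiers, 61369 matched a symbol in GENCODE. As in the study, genes whose 3 untreated vector libraries summed to under 10 counts were dropped, which left 22486. Counts were fitted in edgeR 4.0.16 (TMM, robust quasi-likelihood, 12 group means, R 4.3.3) with adjusted p over all tested genes, and calls were made at 0.05. DESeq2 1.42.0 was an alternative. The fits were also run on simulated counts with few changed genes and no outlying library. That run did not cover a change as broad as that under arsenite, nor libraries that stand apart. CPM used TMM library sizes and a prior count of 2 on the log2 scale. Motifs were searched on both strands.

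The 8 genes and all lists were chosen with earlier results of these data known, and some listed genes are not reported here. Named genes were the 8, TXNL1, every enzyme reported, up to 3 called genes per list and direction with the smallest adjusted p, and the 5 genes nearest the mean standardised pattern of the 8. That mean is not a pattern that each of the 8 follows. Further list members were named after their values were seen. Per the methods, treatments were done in triplicate in cultures of each line, so p-values measure the spread between such samples and not between independently made lines. The main fit did not pair samples by replicate number, and whether same-numbered samples were handled together is not given in the sources used here. Correlations of deviations between same-numbered samples ran from -0.855 to 0.784 with a median of 0.016, which does not settle it.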

Additional observations from a re-analysis of the deposited data

How the results depend on the processing

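None of the 51 changes of the 8 genes that were followed changed direction under any alternative. Followed were all 8 genes in the averaged arsenite and peroxide comparisons against untreated and, in other comparisons, only changes called in the main fit. Uncalled changes in those other comparisons, such as IDI1 under arsenite in the D162R R234D line, were not followed. Of the 1197 refitted values of the 51 changes, 1125 stayed on their side of the threshold, 67 lost it and 5 gained it. None of the 37 called arsenite and 4 called peroxide changes of the other listed genes changed direction either, and 4 and 3 of these lost their call in some alternative. The falls of INSIG1, SQLE and LSS under arsenite kept their calls throughout, and the averaged count of 8 stayed between 6 and 8.

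Shares in parentheses are of all genes called in the same fit. Fits with only the groups compared called 7 of 8 genes for arsenite with the vector (58.8%), 3, 0, 0 and 2 for peroxide in the vector, WT, D162R R234D and SxxS lines (12.5%, 0.00445%, 0.792% and 7.21%), 2 for SxxS against the vector untreated (0.978%) and 0 for WT against the vector under peroxide (0%). Total counts in place of TMM called 3 for arsenite in the SxxS line (42.5%), 0 for peroxide in the D162R R234D line (1.01%), 1 for WT against the vector under arsenite (2.01%) and 1 of 10 isoprenoid genes under peroxide (11.6%). No filter, with 42726 genes, called 1 for averaged peroxide (4.29%), 0 for peroxide in each line (0.173% to 2.5%), 0 for WT against the vector untreated (0.0257%) or under peroxide (0.0679%), and 0 of 25 other sterol genes and 1 of 10 fatty acid genes under averaged peroxide. DESeq2 called 1 for SxxS against the vector untreated (0.0578%) and 2 for WT against the vector under arsenite (4.99%). With WT peroxide replicate 2 and WT arsenite replicate 1 removed, which was chosen after seeing the data, the counts were 5 for averaged peroxide (28.6%), 3, 3 and 2 for peroxide in the vector, D162R R234D and SxxS lines (9.87%, 10.4% and 6.56%), 2, 0 and 2 for WT against the vector untreated, under peroxide and under arsenite (2.99%, 0.205% and 2.96%), 1 and 1 for SxxS against the vector untreated and under peroxide (0.142% and 0.156%), and 8, 6 and 5 other sterol, fatty acid and isoprenoid genes under averaged peroxide.

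Leaving out single libraries gave 1 to 3 called for peroxide in the WT line, 0 to 1 in the D162R R234D and SxxS lines, 0 to 1 for WT against the vector untreated, 0 to 3 under peroxide, 0 to 2 under arsenite, and 1 to 4 other sterol genes under averaged peroxide. Apart from 1 fit below, the shares of all genes called in these fits are not given here. The counts therefore show only how the calls moved and are no result about these genes. WT against the vector under peroxide reached 3 without WT peroxide replicate 1 or 3, which leaves the outlying library as 1 of 2. Without WT peroxide replicate 2, 4 other sterol genes and 4 of 10 isoprenoid genes passed under averaged peroxide (16.7%). The replicate block, on numbers whose deviations had a median correlation of 0.016 between same-numbered samples with 44 of 198 pairs over 0.1, took the 1 call of WT against the vector under peroxide to 0 (0.0978%) and changed no other count by over 1.5 times, though the HMGCS1 call for arsenite in the D162R R234D line was lost. The cause of these changes was not tested.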
